A study of Mus musculus with 24 samples.

Results

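The comparison described here is the effect of a low protein diet on the kidney cortex of mice that lack the hormone FGF21. It takes every library of FGF21 knockout (KO) mice by genotype and diet, 12 of the 24 libraries of the series, across all genes of the count table. The 2 groups of 6 libraries are KO_NP and KO_LP. KO_NP mice ate the normal protein diet (NP, 20% casein) and KO_LP mice the low protein diet (LP, 5% casein). All were male FGF21 KO mice on the C57BL6/J background, ate ad libitum from 3 months of age, and were sampled at 22 months. The other 12 libraries are wild type (WT) mice of the same sex, strain background and age on the same diets (WT_NP and WT_LP, 6 each). They serve here to test whether the diet effect differed and as a description beside the KO values. The labels do not say how Fgf21 was inactivated or whether the loss covered the whole body, and Fgf21 and Klb, its co-receptor, were not analysed here for want of a row in the tables used, so the knockout was not checked on its own gene. No batch is labelled, and the index numbers run in blocks by group, so a batch that followed the groups cannot be told apart from them. RNA came from flash frozen cortex, and Lexogen QuantSeq libraries, which place reads at the 3' end of each transcript, were read for 50 bases.

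FGF21 is made mainly by the liver, rises in blood when dietary protein is short, and acts on cells that carry an FGF receptor together with beta-Klotho. The kidney cortex consists largely of proximal tubule, whose cells recover filtered glucose, phosphate and amino acids and are packed with mitochondria that burn fatty acids and the carbon skeletons of amino acids. Injured or inflamed tubule cells turn down this programme and turn on keratins, acute phase proteins, antigen presentation and signals that draw in immune cells. The comparison asks what long-term protein restriction does to these programmes at an old age when FGF21 is missing.

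Of 16921 genes in the table, 15165 passed the filter on low counts and were tested. The edgeR quasi-likelihood test with Benjamini-Hochberg adjustment called 1087 genes at an adjusted p under 0.05, which is 7.17% of those tested. Higher on LP were 544 genes (3.59%), and lower were 543 (3.58%). The median log2 fold over all tested genes was 0.03. Called rises were larger and came from weaker genes: their median log2 fold was 0.71 at a median of 8.38 CPM (counts scaled by library size) in KO_NP, and 179 of them were at least 2-fold. Called falls had a median log2 fold of -0.45 at a median of 54.7 CPM, and 46 were at least 2-fold. Library totals ran from 8.47 to 16.3 M counts and did not differ by more than the spread (13.6 ± 1.87 M in KO_NP and 12.3 ± 2.06 M in KO_LP, SD, n = 6 each, two-sided exact permutation p = 0.299, adjusted p = 0.398 over 4 library measures). Mitochondrially encoded genes took 28.1% ± 1.54 of the counts in KO_NP libraries and 23.1% ± 2.66 in KO_LP libraries (exact permutation p = 0.00216, adjusted p = 0.00433). The kidney label was checked on markers: all 13 listed markers of the first 2 proximal tubule segments and all 16 of podocytes were measured and passed the filter. The 13 proximal markers summed to 8067 to 10205 CPM in KO_NP and to 5086 to 8137 CPM in KO_LP. In bulk tissue, fewer cells of a type and less RNA per cell cannot be told apart.

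The KO_LP libraries did not move to the same extent. Over the called higher genes, the median deviation from the KO_NP mean was 0.37 on the log2 scale in KO_LP 1, the library nearest to the KO_NP group, against 0.94 in KO_LP 4 and 0.81 in KO_LP 6. Over the called lower genes it was -0.23 in KO_LP 1 and -0.68 in both KO_LP 4 and KO_LP 6. The most extreme LP library of a called higher gene was KO_LP 4 for 257 genes and KO_LP 6 for 218, and for called lower genes it was KO_LP 6 for 275 and KO_LP 4 for 200. Leaving out 1 library moved the number of calls more than 1.5-fold in 9 of the 12 cases. The count was 454 without KO_NP 1, 623 without KO_NP 3, 399 without KO_NP 4, 122 without KO_NP 5, 460 without KO_NP 6, 593 without KO_LP 5, 136 without KO_LP 4 and 466 without KO_LP 6, and it was 2006 without KO_LP 1. Without both KO_LP 4 and KO_LP 6 a single call was made, for Samd9l. A total of 96 genes, 30 higher and 66 lower, were called in the full fit and in each of the 12 fits that left out 1 KO library. Of these, 84 had LP and NP libraries that did not overlap, as had 562 of all 15165 tested genes (3.71%). Called genes that are given below with their values per group and no remark on single libraries belong to these 96, and calls given as a log2 fold alone were in most cases lost in 1 or more of the 12 fits. With 1 surrogate variable (a hidden difference between libraries estimated from the data) added to the fit the count was 2 when it was estimated from CPM and 183 when it was estimated from raw counts (70 higher and 113 lower). With the variable from CPM the median log2 fold changed sign in 19 of the 84 gene groups and lay over 1.5 times nearer to zero in 48 more, and its value is given below beside the main groups. On the authors' normalized values limma called 412 genes higher and 622 lower, so the share of higher calls was 39.8% there against 50% here.

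**Figure D1:**
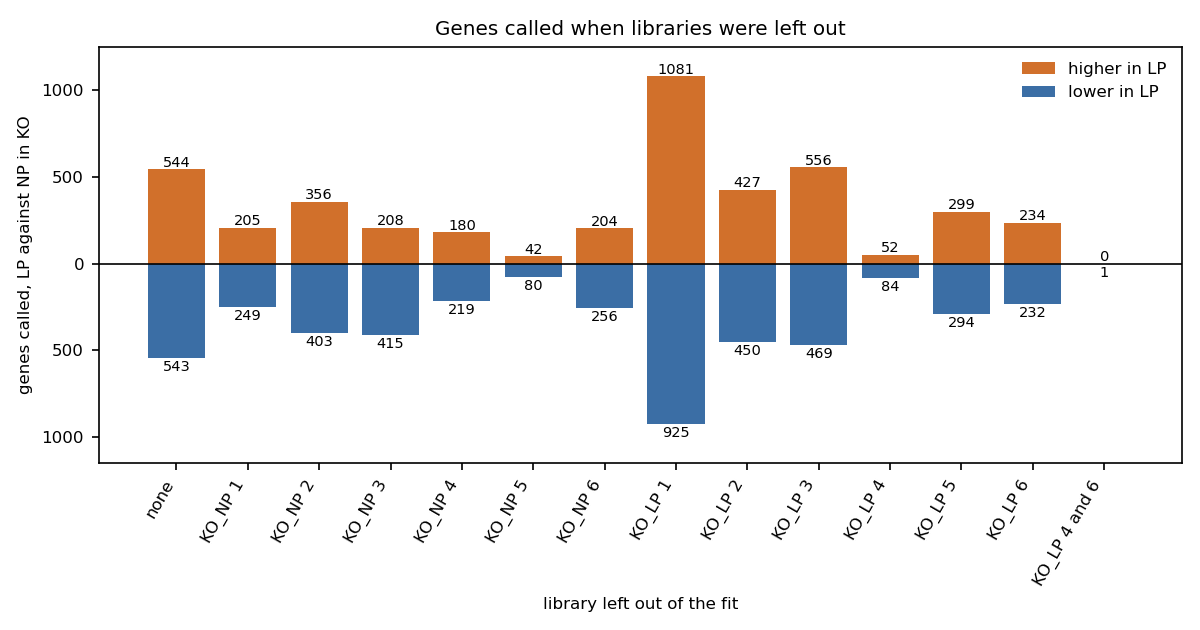
Number of genes called for LP against NP in KO (y axis, genes) in the full fit and in fits that leave out the libraries named on the x axis, with higher calls drawn upward and lower calls downward. The count was 1087 with all libraries, 122 without KO_NP 5, 136 without KO_LP 4 and 2006 without KO_LP 1.

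PPAR alpha is the receptor that senses fatty acids and turns on the genes that burn them. Of 37 tested genes of fatty acid oxidation and PPAR alpha targets, 10 rose and 0 fell, with a median log2 fold of 0.31. Among those that rose were the omega hydroxylases Cyp4a14 and Cyp4a10, the pyruvate dehydrogenase kinase Pdk4, the thioesterases Acot1 and Acot2, the lipid droplet coat Plin2, the lipase inhibitor Angptl4 and the uncoupling protein Ucp2. Only 1 member was called without KO_LP 6 or without KO_NP 5, and 13 were without KO_LP 2. The median was 0.13 without KO_LP 6 and 0.56 with the surrogate variable from CPM. Cyp4a14, which oxidises the far end of fatty acids, was at 5.54, 19.7 and 387 CPM (lowest, median, highest) in KO_NP and at 86, 254 and 5150 CPM in KO_LP. The groups overlapped, since KO_NP 2 lay above 5 of the 6 LP libraries, and the log2 fold was 3.65 (SE 1.07, adjusted p = 0.0436). It was 1.41 without KO_LP 6, and the call held in 5 of the 12 fits that leave out 1 library and was lost without KO_NP 1, 3, 4, 5 or 6 and without KO_LP 4 or 6.

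Library KO_LP 6 had the highest mean of the PPAR alpha list, and KO_LP 1 came next. These means were 7.91 and 7.10 on the log2 CPM scale. The other LP libraries were at 6.21 to 6.49 and the NP libraries at 6.15 to 6.35. Plin2 was at 55.8, 70.3 and 86.2 CPM in KO_NP and at 68.7, 82.6 and 1310 CPM in KO_LP, so 4 LP libraries lay within the NP range, KO_LP 1 lay above it at 113 CPM and KO_LP 6 stood alone. Its log2 fold of 2.03 (adjusted p = 0.0414) was 0.26 without KO_LP 6, and the call was lost. Acot1 likewise went from 42, 45.8 and 58.8 CPM to 53.2, 66.8 and 645 CPM, with a log2 fold of 1.85 (adjusted p = 0.0303) and of 0.68 without KO_LP 6. On the log2 CPM scale, KO_LP 6 had a mean of 5.20 over 10 adipocyte markers, with 3.99 to 4.36 in the rest of KO_LP. Over 5 genes of the adrenal cortex its mean was 3.26, with 1.97 to 2.14 in the rest. The defining adipocyte genes Plin1 and Lep and the adrenal genes Cyp11a1, Cyp11b1 and Nr5a1 were not analysed here for the same reason as Fgf21, and Adipoq was below the filter. Summed over its 10 markers the adipocyte list was at 765 to 1350 CPM in KO_NP and 682 to 1460 CPM in KO_LP. The part of these cells in the rises of KO_LP 6 was not tested. Cyp4a10 and Cyp4a14, and Acot1 and Acot2, are close paralogs whose reads the authors' counting could have split.

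**Figure D2:**
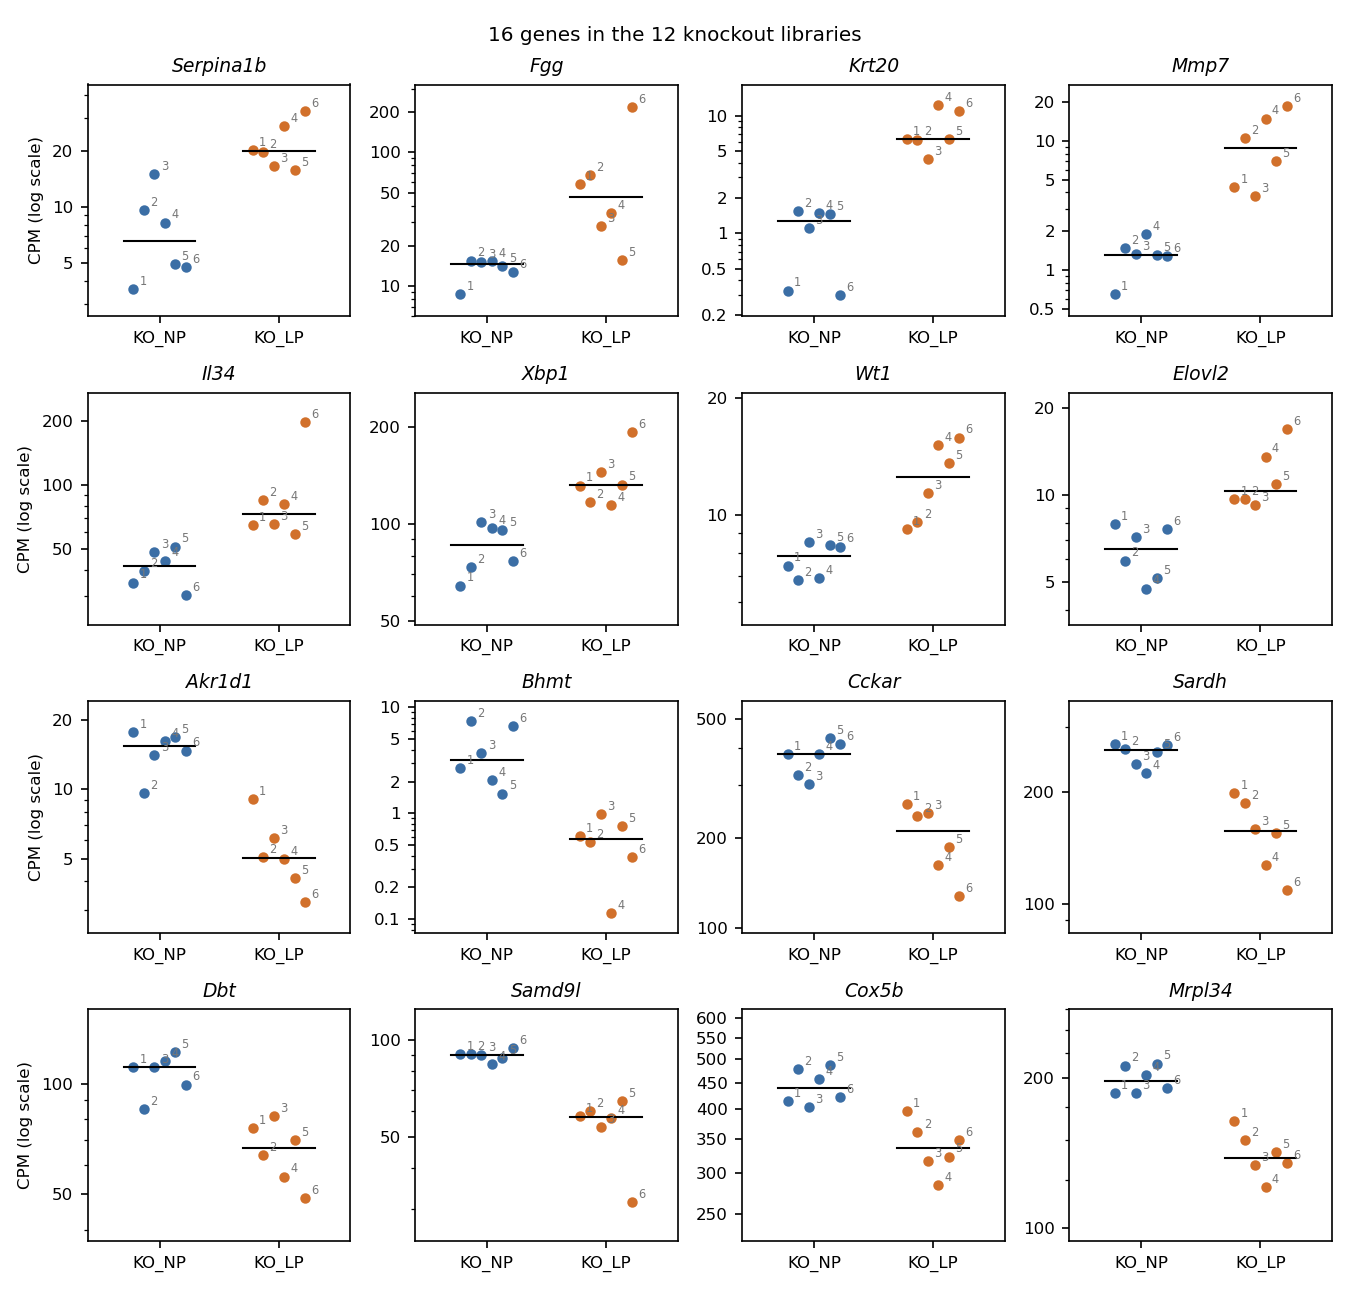
Expression (y axis, CPM on a log scale) of 16 genes in each KO_NP and KO_LP library, with points labelled by library number and bars at the group medians. Fgg sits at 8.72 to 15.5 CPM in KO_NP and 15.7 to 219 CPM in KO_LP, while Samd9l sits at 84.1 to 94.3 and 31.4 to 64.6 CPM.

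Genes of the respiratory chain were lower on LP in small and even steps. All 37 tested subunits of complex I, the NADH dehydrogenase that feeds electrons into the chain, had negative log2 folds, from -0.41 to -0.16 with a median of -0.33. Of the 37, 16 fell and 0 rose. With the surrogate variable from CPM the median was -0.10 and 5 of the 37 were positive. All 37 stayed negative in each of the 12 fits that left out a library, while the number called ran from 1 (without KO_NP 5 or KO_LP 4) to 27 (without KO_LP 1). Ndufb7, an accessory subunit, was at 110, 116 and 122 CPM in KO_NP and at 81.1, 89.1 and 106 CPM in KO_LP. The 2 groups did not overlap, and the log2 fold was -0.34 (SE 0.0732, adjusted p = 0.0182). In complex IV, which hands electrons to oxygen, 4 of 13 fell and 0 rose (median -0.35, 2 to 10 called with 1 library left out, the most without KO_LP 1). Its subunit Cox5b (chr1:36691449-36693681 in GRCm38) went from 403, 440 and 487 CPM to 284, 335 and 396 CPM, a log2 fold of -0.39 (SE 0.0807, adjusted p = 0.0133), and no LP library reached the lowest NP library. Cox6a2, the striated muscle form of a complex IV subunit, showed a larger log2 fold of -2.03 (adjusted p = 0.0104). It overlapped between the groups (3.8 to 22.2 CPM in KO_NP, 1.7 to 5.12 in KO_LP), and skeletal muscle markers summed to 51.8 to 112 CPM in KO_NP and 17.2 to 115 CPM in KO_LP, a link that was not tested.

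The rest of the chain followed the same pattern. ATP synthase, which turns the proton gradient into ATP, had 5 of 17 subunits called lower (median log2 fold -0.32, 1 to 15 called with 1 library left out). Atp5g1, which encodes its membrane ring subunit, was at 131, 144 and 161 CPM in KO_NP against 90, 105 and 129 CPM in KO_LP (log2 fold -0.45, SE 0.0913, adjusted p = 0.0124). One member each was called lower in complex II (Sdhb, -0.44, of 4 tested) and complex III (Uqcrq, -0.44, of 9 tested). The Sdhb call was lost in 8 of the 12 fits, among them those without KO_NP 5, KO_LP 4 or KO_LP 6, and that of Uqcrq was lost without KO_NP 5 or KO_LP 4 (log2 fold -0.52 to -0.38 over the fits). Of the 13 mRNAs encoded by the mitochondrial genome itself, 8 were tested. For want of a row, mt-Nd4l, mt-Co2, mt-Co3, mt-Atp6 and mt-Atp8 were not analysed here. Of the 8, 3 fell (mt-Nd1, mt-Nd5 and mt-Co1), and the median was -0.50. The number called was 0 without KO_NP 5 or KO_LP 4 and 6 without KO_LP 1. The mRNA of mt-Co1 was at 2526, 2668 and 2783 CPM in KO_NP and at 1229, 1891 and 2436 CPM in KO_LP. Its log2 fold of -0.51 (SE 0.125, adjusted p = 0.0236) lost the call without KO_NP 5 (-0.50) or without KO_LP 4 (-0.42).

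The tricarboxylic acid cycle and pyruvate dehydrogenase, which supply the chain with electrons, had 7 of 21 genes called lower and 0 higher (median log2 fold -0.31, and -0.10 with the surrogate variable from CPM, where 2 of the 21 were positive). All 21 were negative in the full fit and in every fit with a library left out, though no member was called without KO_NP 5 or without KO_LP 4 and 14 were without KO_LP 1. Idh2, the isocitrate dehydrogenase of mitochondria that yields NADPH, went from 339, 387 and 474 CPM to 222, 275 and 346 CPM. The groups overlapped at KO_LP 1, and the log2 fold of -0.49 (adjusted p = 0.0232) was -0.50 without KO_NP 5 and -0.44 without KO_LP 4, and each of these ended the call. Of 77 mitochondrial ribosomal proteins 10 fell and 0 rose (median -0.18, 1 to 25 called with 1 library left out). Mrpl34 (chr8:71464959-71465747) was the clearest, at 187, 197 and 214 CPM against 121, 139 and 164 CPM (log2 fold -0.50, SE 0.0876, adjusted p = 0.0073). Import and chaperone genes had 1 of 26 called lower (Phb, -0.33), which is 3.85% against 3.58% of all tested genes. All 26 were negative, with a median of -0.23. Carriers had 3 of 40 called lower (7.5%, against 3.58% of all tested genes). The orphan carrier Slc25a48 led them (-0.70, edgeR adjusted p = 0.0129), at 42.3 to 48.3 CPM in KO_NP and 22.6 to 33.4 CPM in KO_LP. Among regulators of mitochondrial biogenesis the coactivator Ppargc1a (-0.37, adjusted p = 0.0428) and its partner receptor Esrra (-0.40, adjusted p = 0.0374) were called lower, 2 of 18. Their calls held in 2 and 7 of the 12 fits, and both were lost without KO_NP 4, KO_NP 5, KO_LP 2, KO_LP 4 or KO_LP 6. Proximal tubule markers had their lowest means in KO_LP 4 (7.86) and KO_LP 6 (7.54) on the log2 CPM scale. The other LP libraries were at 8.46 to 8.54 and the NP libraries at 8.54 to 8.85. The complex I mean was lowest in KO_LP 4 (7.27), while KO_LP 6 (7.51) lay within the 7.45 to 7.88 of the other LP libraries. The part of the tubule markers in the mitochondrial values was not tested. Without both KO_LP 4 and KO_LP 6 the complex I median was -0.26. The binding motif of Esrra, AAGGTCA on either strand, was searched in windows of 300 bases around RefSeq gene starts. It was in a window of 4.09% of all tested genes that have one. Called lower genes had it in 6.22% (27 of 434) and called higher genes in 5.02% (21 of 418).

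Breakdown of branched chain amino acids, which takes place in mitochondria, had the largest share of called members among the metabolic groups. Of 23 genes tested, 13 fell and 0 rose, with a median log2 fold of -0.39, and 22 stayed negative in all 12 fits with a library left out. The median was -0.12 with the surrogate variable from CPM. The count was 3 without KO_NP 5 or KO_LP 4 and 20 without KO_LP 1. Dbt, the core subunit of the branched chain ketoacid dehydrogenase that commits these amino acids to oxidation (chr3:116513070-116549981), was at 85.3, 111 and 122 CPM in KO_NP. In KO_LP it was at 48.7, 66.9 and 81.5 CPM, below every NP library, with a log2 fold of -0.70 (SE 0.134, adjusted p = 0.00932). Ivd, the next dehydrogenase on the leucine route, went from 152, 178 and 190 CPM to 83.1, 115 and 141 CPM (log2 fold -0.62, adjusted p = 0.0145). Mccc2, a subunit of the biotin carboxylase that acts after Ivd, had a log2 fold of -0.58 (adjusted p = 0.0165), with a slight overlap at KO_LP 1. The remaining called members span the route from transamination (Bcat2, -0.53) over the dehydrogenase (Bckdhb, -0.43) to the propionate enzyme Pcca (-0.47).

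Glycine, serine and methyl group metabolism showed a deep fall in 1 enzyme. Bhmt, which remethylates homocysteine with betaine (chr13:93616675-93637961), was at 1.54, 3.18 and 7.47 CPM in KO_NP and at 0.115, 0.577 and 0.994 CPM in KO_LP. No LP library reached the lowest NP library, and the log2 fold was -2.84 (SE 0.466, adjusted p = 0.0073). Its close paralog Bhmt2 was also called (-0.67, lost without KO_NP 5 or KO_LP 4). In all, 10 of 25 genes of this group fell and 0 rose (median log2 fold -0.34, and -0.08 with the surrogate variable from CPM, 3 called without KO_NP 5 or KO_LP 4 and 11 without KO_LP 1 or KO_LP 2). Sardh, which oxidizes sarcosine in mitochondria (chr2:27188393-27248337), went from 225, 259 and 270 CPM to 109, 157 and 199 CPM, again without overlap (log2 fold -0.70, SE 0.148, adjusted p = 0.0156). Amt, the aminomethyltransferase of the glycine cleavage system, was at 64.3 to 72.8 CPM in KO_NP and 37.4 to 55.7 CPM in KO_LP. Aldh1l1, which oxidizes formyl tetrahydrofolate, went from 113, 129 and 138 CPM to 64.2, 77.6 and 98.6 CPM (log2 fold -0.67, SE 0.116, adjusted p = 0.0073). Phgdh and Psat1, which make serine, and Mthfd2 of its folate cycle did not share this direction, and none was called. Their log2 folds were 0.93 (adjusted p = 0.128), 1.01 (0.107) and 0.76 (0.0883). Shmt2, which splits serine in mitochondria, was called lower and is given below with the ATF4 targets. For Psat1 the higher value sat in 1 library, since 5 LP values lay within the NP range of 10.2 to 17.4 CPM and KO_LP 6 was at 89.4 CPM.

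For tyrosine, phenylalanine, tryptophan and lysine, 9 of 21 breakdown genes fell and 0 rose (median log2 fold -0.42, and -0.09 with the surrogate variable from CPM), from 0 called without KO_NP 5 or KO_LP 4 to 12 without KO_LP 1. Aadat, the aminotransferase of the lysine and kynurenine routes, was at 86.9, 121 and 140 CPM in KO_NP and at 44.4, 70.4 and 79.3 CPM in KO_LP. Every LP library was below every NP library, and the log2 fold of -0.87 (adjusted p = 0.0236) was -0.81 without KO_NP 5 and -0.78 without KO_LP 4, which ended the call. Acmsd, which steers tryptophan carbon away from NAD synthesis (-0.81), held its call in 7 of the 12 fits and lost it without KO_NP 1, KO_NP 4, KO_NP 5, KO_NP 6 or KO_LP 4. Proline, arginine and urea cycle genes had 3 of 20 called lower (Prodh, -0.66; Aldh4a1, -0.47; Odc1, -0.83), with a median of -0.16. Beside these pathways, the carbonic anhydrase Car2, which supplies bicarbonate and protons to several nephron cell types (chr3:14886273-14900770), went from 247, 261 and 297 CPM to 122, 166 and 203 CPM (log2 fold -0.67, SE 0.114, adjusted p = 0.0073).

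Among transporters of the proximal tubule for glucose, phosphate, sulfate and citrate, 6 of 20 fell and 1 rose (median log2 fold -0.45, and -0.17 with the surrogate variable from CPM). The called falls numbered 1 without KO_NP 5, KO_LP 4 or KO_LP 6 and 8 without KO_LP 1. Slc26a1, the basolateral sulfate exchanger, went from 96.9, 123 and 145 CPM to 51.5, 81.4 and 97.7 CPM, and overlapped between the groups only at the edge (log2 fold -0.69, SE 0.14, adjusted p = 0.0129). Slc34a1, the main phosphate carrier of the brush border, was at 2837, 3271 and 3391 CPM in KO_NP and at 917, 2333 and 2451 CPM in KO_LP. Its groups did not overlap and KO_LP 6 was the lowest, yet the call (log2 fold -0.68, adjusted p = 0.0371) held in 5 of the 12 fits only and was lost without any 1 of KO_NP 1, KO_NP 3 to KO_NP 6, KO_LP 4 or KO_LP 6 (-0.53). The glucose carrier Slc5a2 of the early segments was lower as well (-0.69, adjusted p = 0.042, held in 5 of 12 fits and lost without KO_NP 1, KO_NP 2, KO_NP 4 to KO_NP 6, KO_LP 4 or KO_LP 6), while Slc5a1, which works in the late segment, was higher (0.35, adjusted p = 0.0436, held in 2 of 12). Of 20 amino acid and peptide transporters 1 was called lower (5%, Slc7a8, -0.52, median of the group -0.30). Of 27 organic anion and cation transporters 1 was called lower (3.7%, Slc22a18, -0.65, median -0.25). Both shares were near the 3.58% of all tested genes. The cholecystokinin receptor gene Cckar, which belongs to none of these groups, had LP libraries all below NP (302, 382 and 432 CPM against 128, 212 and 259 CPM, log2 fold -0.88, SE 0.188, adjusted p = 0.0168).

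Sterol synthesis genes, which supply cholesterol, had 8 of 26 called lower and 0 higher (median log2 fold -0.30), with 0 called without KO_NP 5 and 9 without KO_LP 1. Nsdhl, a late step of the route, went from 39.1, 43.3 and 48.8 CPM to 17.2, 30.1 and 34.2 CPM. The log2 fold was -0.59 (adjusted p = 0.0189), and the call was lost without KO_NP 5 (-0.55). Mvd, an earlier step, had a log2 fold of -0.56 (adjusted p = 0.025), which was -0.53 without KO_NP 5, -0.51 without KO_LP 4 and -0.49 without KO_LP 6, each without a call. In contrast, the elongase Elovl2, which builds very long polyunsaturated fatty acids (chr13:41182381-41220405), rose from 4.74, 6.53 and 7.91 CPM to 9.25, 10.3 and 17 CPM without overlap (log2 fold 0.87, SE 0.184, adjusted p = 0.0156). Within fatty acid synthesis as a whole 1 gene rose and 1 fell of 28 (3.57% each), with a median of -0.08. Of all tested genes 3.59% rose and 3.58% fell.

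Genes of tubular injury and repair were higher on LP in KO. Of 41 tested, 11 rose and 0 fell, with a median log2 fold of 0.83 and 38 of them positive in all 12 fits with a library left out. With the surrogate variable from CPM the median was 0.22 and 28 were positive. Only 1 was called without KO_LP 4, and 19 were without KO_LP 1. Krt20, a keratin of stressed tubule epithelium (chr11:99428403-99438150), was at 0.296, 1.28 and 1.55 CPM in KO_NP and at 4.28, 6.36 and 12.3 CPM in KO_LP. The groups were apart, with a log2 fold of 2.86 (SE 0.642, adjusted p = 0.0228), and the call was lost only without KO_LP 4 (2.68, adjusted p = 0.0558). Mmp7, a matrix protease of injured epithelium, was similar at 0.652, 1.32 and 1.9 CPM against 3.75, 8.79 and 18.5 CPM (log2 fold 2.89, adjusted p = 0.0232; 2.89 without KO_NP 5 and 2.73 without KO_LP 4, both without a call). Il34, a ligand of the macrophage growth factor receptor, went from 30.4, 41.9 and 51.5 CPM to 58.7, 73.5 and 198 CPM and kept its call in all 12 fits (log2 fold 1.15, SE 0.26, adjusted p = 0.0231; 0.72 without KO_LP 4 and KO_LP 6). The best known injury marker, Havcr1, was at 3.46, 10.3 and 21.6 CPM in KO_NP and 16.2, 35.2 and 86.3 CPM in KO_LP, but the groups overlapped and it missed the threshold (log2 fold 1.88, SE 0.633, adjusted p = 0.0666). Wt1, a transcription factor of podocytes and parietal cells (chr2:105126529-105173616), rose from 6.83, 7.86 and 8.54 CPM to 9.2, 12.5 and 15.8 CPM (log2 fold 0.70, SE 0.146, adjusted p = 0.0156), the only 1 of 16 podocyte markers that was called.

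Acute phase genes, many of them targets of the cytokine-activated factor STAT3, held 12 calls higher and 0 lower among 25 tested, with a median log2 fold of 0.87 (0.41 with the surrogate variable from CPM). The 12 called members became 2 without KO_NP 5 or KO_LP 4 and 15 without KO_LP 1. Fibrinogen chains were part of this. Fgg (chr3:83007724-83015049) went from 8.72, 14.7 and 15.5 CPM to 15.7, 46.3 and 219 CPM, with the lowest LP library just above the highest NP library (log2 fold 2.37, SE 0.492, adjusted p = 0.0156). Fga, the neighbouring chain, overlapped slightly, at 7.01 to 14.3 CPM against 13.4 to 158 CPM (log2 fold 2.08, SE 0.447, adjusted p = 0.0189). KO_LP 6 was the highest library for both, and without it and KO_LP 4 the log2 folds were 1.63 and 1.26. Socs3, the feedback inhibitor that STAT3 itself induces, was at 10.7, 12.9 and 16.8 CPM in KO_NP and at 24.1, 29.9 and 60.6 CPM in KO_LP. Its log2 fold of 1.49 (adjusted p = 0.0255) was 1.51 without KO_NP 5, 1.36 without KO_LP 4 and 1.29 without KO_LP 6, and these 3 fits lost the call. Serpina1b, a member of the alpha-1 antitrypsin cluster whose copies are too alike for reads to be assigned with certainty, rose from 3.59, 6.57 and 15 CPM to 15.7, 19.9 and 32.6 CPM (log2 fold 1.51, adjusted p = 0.0156).

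The STAT element was searched as TTCNNNGAA in RefSeq promoter windows, from 250 bases before to 50 after each start. The set searched covers 11133 tested genes, and a gene counts once if any of its windows holds the match. The pattern reads the same on both strands. It was present in 8.25% of all these genes, in 12.7% of the called higher genes (53 of 418) and in 7.6% of the called lower genes (33 of 434). In the acute phase list, drawn up in part from STAT3 targets, it was in 22.7% of all members (5 of 22). Of the called members 33.3% had it (4 of 12: Fga, Fgb, Serpina3g and Socs3). The stretches of Fga and Socs3 that hold it are shown because both genes were described above, and capitals mark the match. Both are from GRCm38.p6 and are written 5′ to 3′ on the strand of the gene, Fga at chr3:83025903-83025972 on the plus strand and Socs3 at chr11:117969467-117969565 on the minus strand.
Fga: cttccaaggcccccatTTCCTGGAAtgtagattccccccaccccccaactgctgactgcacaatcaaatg
Socs3: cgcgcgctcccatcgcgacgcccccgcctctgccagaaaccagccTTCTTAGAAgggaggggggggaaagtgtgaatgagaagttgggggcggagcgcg
The match begins 234 bases before the start in Fga and 154 bases before it in Socs3. A match is a description of the letters, not a site or a cause.

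**Figure D3:**
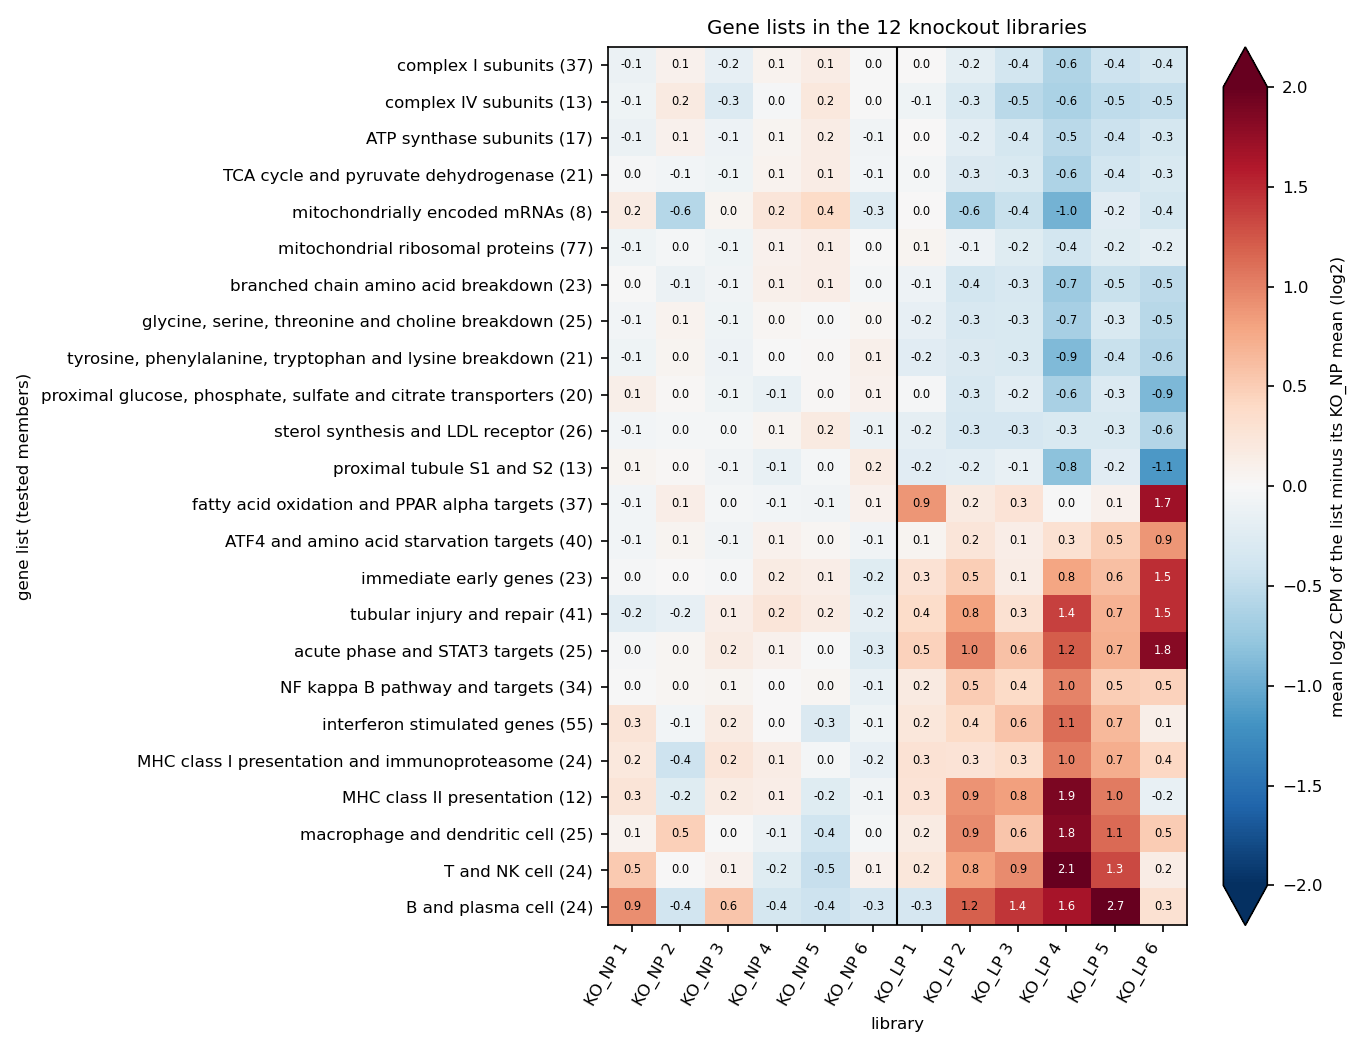
Mean log2 CPM of 24 gene groups (rows) in each of the 12 KO libraries (columns), as the difference from the mean of the KO_NP libraries, coloured from -2 to 2. In KO_LP 4 the macrophage and dendritic cell row is the highest of the 12 libraries (mean 6.51), and in KO_LP 6 the row of proximal tubule S1 and S2 markers is the lowest (mean 7.54).

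Genes of antigen presentation were higher in KO mice on LP, though class II was not in every LP library. On the log2 CPM scale the class II mean was 4.69 in KO_LP 6, within the 4.60 to 5.11 of KO_NP, and 5.12 in KO_LP 1. The remaining LP libraries were at 5.66 to 6.73. Class I means were 4.69 to 5.42 in KO_LP and 3.99 to 4.66 in KO_NP. In class I presentation and the immunoproteasome 11 of 24 genes rose and 0 fell (median log2 fold 0.58), and in class II presentation 7 of 12 rose and 0 fell (median 0.97). These medians were 0.18 and 0.15 with the surrogate variable from CPM. No class I gene was called without KO_NP 5 or without KO_LP 4. No class II gene was called without any 1 of KO_NP 2 to KO_NP 6, KO_LP 4 or KO_LP 5. Without KO_LP 1 the calls were 13 in class I and 10 in class II. H2-K1, a classical class I heavy chain, went from 254, 282 and 301 CPM to 328, 426 and 664 CPM. The groups did not overlap and KO_LP 4 was the highest library (log2 fold 0.77, SE 0.172, adjusted p = 0.0214), with 0.74 without KO_NP 5 and 0.65 without KO_LP 4, both without a call. H2-Aa, a class II chain, was at 408, 454 and 475 CPM against 472, 800 and 1841 CPM (log2 fold 1.03, adjusted p = 0.0436), and its call held in 3 of the 12 fits, with 0.71 without KO_LP 4. Class I genes of the H2-Q group are near-identical copies, so their single values (H2-Q7, 0.87) are uncertain.

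Interferon stimulated genes had 8 of 55 called higher and 1 lower (median log2 fold 0.63, and 0.09 with the surrogate variable from CPM), with 0 higher calls without KO_NP 5 or KO_LP 4 and 16 without KO_LP 1. Gbp2, a guanylate binding protein of the response to interferon gamma, was at 7.85, 8.39 and 10.5 CPM in KO_NP and at 11.8, 16.6 and 32.4 CPM in KO_LP, without overlap. Its log2 fold of 1.03 (adjusted p = 0.0255) was 1.02 without KO_NP 4 and 0.77 without KO_LP 4, and those fits and the one without KO_NP 5 lost the call. Irf1, a transcription factor of the same response, had a log2 fold of 0.75 (adjusted p = 0.0254; 0.72 without KO_NP 5 and 0.56 without KO_LP 4). The single member that fell was Samd9l, an interferon induced brake on translation and growth (chr6:3372257-3399572). It was at 84.1, 90.1 and 94.3 CPM in KO_NP and at 31.4, 57.6 and 64.6 CPM in KO_LP, with every LP library below every NP library. The log2 fold was -0.72 (SE 0.117, adjusted p = 0.0073), and it was -0.60 and still called without both KO_LP 4 and KO_LP 6.

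The IRF element, searched as GAAANNGAA on both strands, was in a window of 8.9% of all tested genes that have one. It was in 10% of the called higher genes (42 of 418) and in 6.22% of the called lower genes (27 of 434). In the interferon list it was in 67.5% (27 of 40), and in 42.9% of the members called higher (3 of 7: Ifit3, Gbp2 and Gbp7). Windows of Gbp2 and Ifit3 are shown because both genes rose. The window of Samd9l, which fell, holds a match that begins 38 bases after the start. Capitals mark the matches, which appear as the reverse complement because they lie on the strand opposite to the gene. Both stretches are from GRCm38.p6 on the plus strand, Gbp2 at chr3:142620560-142620658 and Ifit3 at chr19:34583329-34583480.
Gbp2: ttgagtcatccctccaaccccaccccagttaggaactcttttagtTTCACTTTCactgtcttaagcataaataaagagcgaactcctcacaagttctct
Ifit3: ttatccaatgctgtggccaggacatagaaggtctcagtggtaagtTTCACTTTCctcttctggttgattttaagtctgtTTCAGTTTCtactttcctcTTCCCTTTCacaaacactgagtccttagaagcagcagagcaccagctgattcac
The Gbp2 match begins 58 bases before the start, and the 3 matches of Ifit3 begin 155, 121 and 102 bases before it. Ifit3 itself had a log2 fold of 0.66 (adjusted p = 0.0393) and held its call in 5 of the 12 fits, not without KO_NP 1, KO_NP 3 to KO_NP 6, KO_LP 4 or KO_LP 5.

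Immune cell markers moved along with the genes of antigen presentation. All 25 macrophage and dendritic cell markers had positive log2 folds in the full fit and in every fit with a library left out (median 0.94), and 7 rose, from 0 without KO_NP 5 or KO_LP 4 to 13 without KO_LP 1. With the surrogate variable from CPM the direction was lost, with 11 positive, 14 negative and a median of -0.04. The sum of these markers was 1422 to 1951 CPM in KO_NP and 2028 to 6430 CPM in KO_LP, so the sums did not overlap. Their means on the log2 CPM scale did overlap, at 4.28 to 5.15 in KO_NP and 4.84 to 6.51 in KO_LP. KO_NP 2 (5.15) lay above KO_LP 1 (4.84). Of 24 T and NK cell markers 3 rose (Cd3e, 1.27; Zap70, 1.58; Icos, 1.58), all 24 were positive, the median was 1.15, and the sums were 47.2 to 109 CPM in KO_NP and 83 to 318 CPM in KO_LP. The 3 calls became 0 without KO_NP 4, KO_NP 5 or KO_LP 4 and 9 without KO_LP 1. B and plasma cell markers had a median of 1.54 with only Xbp1 called, which other cells express too, and 9 were called without KO_LP 1. The T and NK median was 0.12 and the B and plasma median 0.06 with the surrogate variable from CPM. Their sums of 2476 to 4558 CPM in KO_NP and 2415 to 23560 CPM in KO_LP were the widest of these lists. Neutrophil markers had 0 of 6 called. KO_LP 4 had the highest mean of the macrophage and of the T and NK cell markers, KO_LP 5 that of the B and plasma cell markers. Some of the antigen presentation genes are markers of these cells as well, and the part of immune cells in the interferon and antigen presentation values was not tested.

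Other signal pathways of inflammation and stress rose in part. In the NF kappa B group 8 of 34 rose and 1, the mitochondrial superoxide dismutase Sod2, fell (-0.45), with a median log2 fold of 0.60 (0.05 with the surrogate variable from CPM). The 8 became 0 without KO_NP 5 or KO_LP 4 and 14 without KO_LP 1. Birc3, an inhibitor of cell death, was at 8.76, 9.47 and 11.5 CPM in KO_NP and at 12.8, 19.1 and 33.9 CPM in KO_LP (log2 fold 1.07, adjusted p = 0.0236; 1.06 without KO_NP 5 and 0.86 without KO_LP 4, both without a call). Immediate early genes, the first to respond to a stimulus, had 7 of 23 called higher and all 23 positive (median 0.68, and 0.26 with the surrogate variable from CPM), led by Ier5 (0.70, adjusted p = 0.0255) and Junb (1.03, adjusted p = 0.0273). No immediate early gene was called without KO_NP 5 or KO_LP 4, and 11 were without KO_LP 1. Cytoskeleton and keratin genes had 6 of 49 called higher (median 0.33, 0 called without KO_LP 4 and 14 without KO_LP 1), among them Arpc1b of the actin branching complex (0.79; lost without KO_NP 5 or KO_LP 4) and Tubb5 (0.67; lost likewise). Extracellular matrix genes had 2 of 40 called higher (5%, against 3.59% of all tested genes), Lox (1.79) and Mmp7, and 0 without KO_NP 5 or KO_LP 4. Fibroblast and pericyte markers had 0 of 19 with a median of 0.40, their sums at 591 to 825 CPM in KO_NP and 567 to 1351 CPM in KO_LP. With the surrogate variable from CPM the medians were 0.02 for the cytoskeleton, -0.05 for fibroblasts and pericytes and -0.25 for the extracellular matrix, which was 0.29 without it. Mrtfa, which couples actin state to transcription, rose, with every LP library above every NP library (4.7, 5.35 and 6.32 CPM against 6.75, 8.68 and 10.9 CPM, log2 fold 0.72, SE 0.136, adjusted p = 0.00932). Bmp7, a tubular growth factor that opposes fibrosis, fell from 24.1, 25.7 and 27.5 CPM to 14.7, 18.1 and 23.3 CPM (log2 fold -0.49, SE 0.106, adjusted p = 0.0171).

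Among 40 targets of ATF4, the factor that amino acid starvation induces, 4 rose (10%) and 1 fell, and 32 were positive. The median log2 fold was 0.47, 0.21 without KO_LP 6 and 0.11 with the surrogate variable from CPM. Only 1 was called higher without KO_NP 5, KO_NP 6, KO_LP 4 or KO_LP 6, and 9 were without KO_LP 1. The amino acid carriers Slc7a5 (1.40, adjusted p = 0.0436), Slc38a2 (0.62, adjusted p = 0.0341) and Slc6a9 (0.57, adjusted p = 0.0329) held their calls in 3, 6 and 7 of the 12 fits, each losing it without KO_NP 5 or KO_LP 6. Pck2, the mitochondrial form of phosphoenolpyruvate carboxykinase, rose from 7.01, 9.06 and 9.54 CPM to 11, 12.7 and 13.9 CPM without overlap (log2 fold 0.50, SE 0.115, adjusted p = 0.0231; 0.49 and not called without KO_LP 4). Shmt2, which splits serine in mitochondria, was the member that fell (-0.48; -0.48 without KO_NP 5 and -0.42 without KO_LP 4, both without a call). Asns, the asparagine synthetase that ATF4 drives, stood at 1.78, 2.44 and 3.23 CPM in KO_NP and at 2.37, 3.27 and 6.65 CPM in KO_LP and was not called (log2 fold 0.81, adjusted p = 0.175). Among 39 amino acid sensors and mTORC1 genes, Mtor itself (-0.46, edgeR adjusted p = 0.0314) and the GATOR1 subunit Nprl2 (-0.37, adjusted p = 0.0236) fell. That is 5.13% of the list, against 3.58% of all tested genes, and the list median was -0.08. Both calls were lost without KO_NP 5 or KO_LP 4, and that of Mtor also without KO_NP 1, KO_NP 4 or KO_LP 6. The ATF4 element, searched as TGATGNAA on both strands, was in a promoter window of 2.83% of all tested genes that have one. It was in 5.74% of called higher genes (24 of 418), in 2.07% of called lower genes (9 of 434) and in 35.3% of the ATF4 list (12 of 34). Of the 3 list members called higher that have a window, 1 holds it.

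Genes of protein synthesis and breakdown stayed close to the median of all genes. Cytosolic ribosomal proteins had 4 of 85 called higher (4.71%, against 3.59% of all tested genes), among them Rps24 (0.33) and Rpsa (0.24). Of the 85, 75 were positive, with a median log2 fold of 0.15, and 0 to 5 were called with 1 library left out. Of 39 aminoacyl tRNA synthetases 3 fell, and these were the mitochondrial enzymes Aars2 (-0.44), Mars2 (-0.37) and Rars2 (-0.40). The constitutive proteasome had 0 of 31 called (median -0.09), and translation factors had 1 of 66 higher (1.52%). Autophagy had 1 higher and 1 lower of 39 (2.56% each). Lysosome genes had 3 higher and 2 lower of 48 (6.25% and 4.17%). Of all tested genes 3.59% were higher and 3.58% lower. Within the unfolded protein response 1 of 27 was called higher (3.7%), Xbp1, a factor that expands the secretory pathway. Xbp1 was at 64.6, 86.4 and 102 CPM in KO_NP and at 115, 133 and 194 CPM in KO_LP without overlap (log2 fold 0.71, SE 0.154, adjusted p = 0.0178). Hspa5, a chaperone of the endoplasmic reticulum that the same response induces, had a log2 fold of 0.12 (adjusted p = 0.729). Receptors and feedback genes of the FGF pathway had 0 of 23 called with a median of 0.17, and in the insulin and IGF group 3 rose and 1 fell of 27. Among the latter, the receptor adaptor Grb10 went from 15.9, 18.4 and 20.5 CPM to 20.1, 24.6 and 31.2 CPM (log2 fold 0.44, SE 0.0902, adjusted p = 0.0133).

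Some genes best known from the liver fell and others rose. The smallest adjusted p of the comparison belonged to Akr1d1, the 5-beta-reductase of steroid and bile acid metabolism (chr6:37530173-37568815). It was at 9.6, 15.5 and 17.7 CPM in KO_NP and at 3.25, 5.04 and 9.08 CPM in KO_LP, all LP libraries below all NP libraries, with a log2 fold of -1.47 (SE 0.209, adjusted p = 0.00382). Albumin (Alb) went from 8.69, 11.9 and 60.5 CPM to 3.33, 4.51 and 5.68 CPM without overlap (log2 fold -2.20, SE 0.412, adjusted p = 0.00932; -1.50 and still called without KO_NP 3, which held the highest value). Apoa2 had the same high library, a log2 fold of -1.54 (adjusted p = 0.029) and of -0.63 without it, and its call was lost without KO_LP 4 (-1.58) or KO_LP 6 (-1.49). In all, 4 of 26 liver type genes rose and 6 fell (median -0.13), with 1 higher without KO_NP 5 and 2 lower without KO_LP 4. Male-biased kidney genes had 2 of 22 called lower (Odc1, -0.83, and Ugt2b37, -1.16) with a median of -0.50 (-0.04 with the surrogate variable from CPM), and 0 were called without KO_NP 5 or KO_LP 4 and 5 without KO_LP 1.

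In WT mice the same diet contrast had 0 of 15165 genes called (0%) by edgeR quasi-likelihood. There 580 genes were at an unadjusted p under 0.05, the smallest adjusted p was 0.0931, limma voom called 6 and DESeq2 14. The difference of the 2 diet effects, KO minus WT, was tested directly as an interaction in the same fit. It also had 0 called (0%), with 2430 genes at an unadjusted p under 0.05 where chance gives 758, a smallest adjusted p of 0.158, 0 by limma voom and 117 by DESeq2. No gene is therefore shown by edgeR to respond differently in the 2 genotypes. The WT and KO contrasts share no library. Of the 544 genes called higher in KO, 278 were above zero in WT with a WT median log2 fold of 0.00, and of the 543 called lower 338 were below zero in WT with a median of -0.03.

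The genes named here were chosen for their effect in KO, which the difference contains, so their values in both genotypes are given as a description. For Akr1d1 the log2 fold was -1.47 in KO and -0.17 in WT, for Samd9l -0.72 and -0.09 and for Tram2, a gene of collagen secretion, 0.78 and -0.22. Elovl2 had log2 folds of 0.87 in KO and 0.89 in WT (SE 0.184 and 0.179). Mpped1, a metallophosphoesterase (chr15:83779467-83858494), had -1.45 in KO and -1.17 in WT, and in KO it went from 4.05, 8.35 and 10.3 CPM to 1.53, 2.84 and 3.43 CPM without overlap. Medians of the gene groups in WT were 0.00 for complex I, -0.01 for branched chain amino acid breakdown, 0.02 for fatty acid oxidation and PPAR alpha targets, -0.06 for tubular injury and -0.03 for the acute phase. Those of T and NK cell markers and of B and plasma cell markers were -0.52 and -0.93 in WT against 1.15 and 1.54 in KO. On the log2 CPM scale the WT means of complex I (7.71 in both WT groups) lay between KO_NP (7.87) and KO_LP (7.55). The same held for branched chain breakdown (6.80 in both, against 7.02 and 6.61). The PPAR alpha group was at 6.50 (WT_NP) and 6.54 (WT_LP), against 6.21 and 6.73. Tubular injury was at 4.46 and 4.47, against 4.13 and 4.97, and acute phase genes at 3.59 and 3.64, against 3.35 and 4.30. The offset of KO_NP from WT_NP was not tested.

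**Figure D4:**
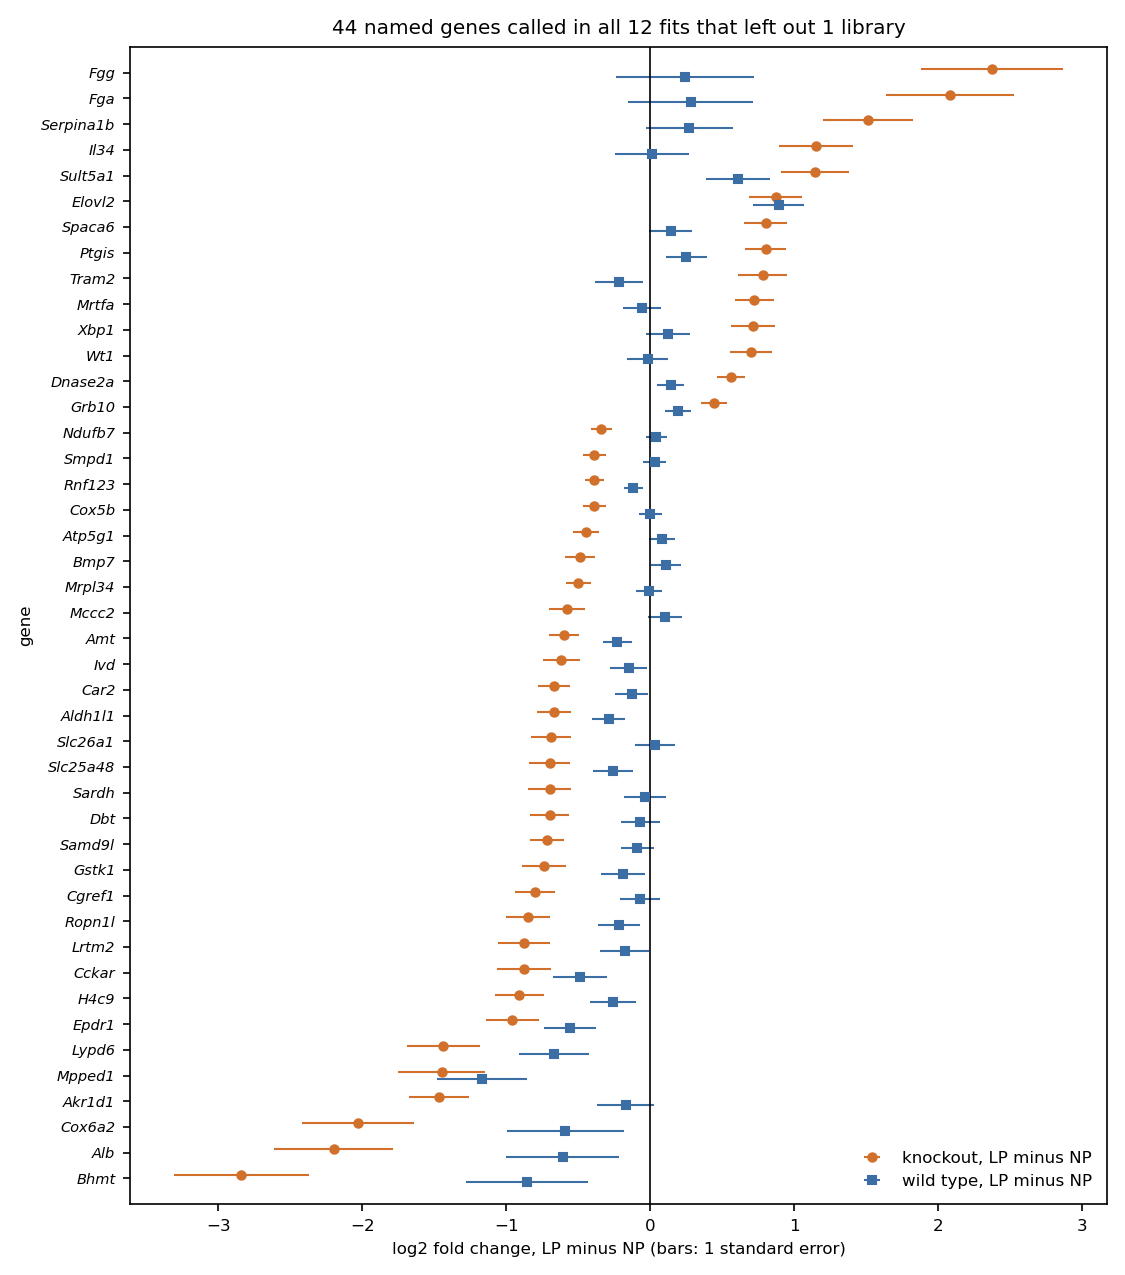
Log2 fold of LP against NP (x axis) in KO and in WT for 44 named genes that were called in KO in all 12 fits leaving out 1 library; points are estimates and bars are 1 SE. Elovl2 (0.87 and 0.89) and Mpped1 (-1.45 and -1.17) have similar values in both genotypes, while Akr1d1 is at -1.47 in KO and -0.17 in WT.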

How the data were processed

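Kidney cortex RNA of 24 libraries was profiled with QuantSeq, per the labels' protocols. The authors deposited raw counts, reads per gene, and a normalized signal that equals the deposited counts divided by 1 size factor per library (relative spread of the ratio at most 1e-14). The build GRCm38 and the tool DESeq2 1.22.2 are named, without their role, per the submitters' processing notes. The aligner is not given in the sources used here. Every gene had a mean count of at least 3, so weaker genes had been removed before deposit. Symbols came from the files for 14208 identifiers and from GENCODE M21, with the coordinates, for 2668 more; 45 had none.

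Counts were analysed with edgeR 4.0.16 in R 4.3.3: filterByExpr on the 4 groups, TMM factors, and 1 robust quasi-likelihood fit of 4 group means over all 24 libraries, after a test of the script on simulated counts. Tests were two-sided, adjusted by Benjamini-Hochberg over all 15165 genes tested, and called at an adjusted p under 0.05. CPM are counts scaled by library size and TMM factor. The SE is the log2 fold divided by the square root of the F statistic. In a gene list, a member is counted by its call over all genes, and no list was tested. Alternatives used limma 3.58.1, DESeq2 1.42.0 and sva 3.50.0. Library measures were compared with exact permutation tests in Python 3.11.15 (scipy 1.17.1, pandas 2.3.3, numpy 2.4.6), and figures used matplotlib 3.10.9. Replicate pairs of KO gave a chi-square per degree of freedom of 5.71 to 66.9, where counting error alone gives about 1, so no 2 libraries were alike within sampling noise. The labels give each library its own identifier but do not state that each is 1 mouse, and p-values then measure the spread between these samples only. Replicate numbers are names in accession order.

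The comparison, the members and the lists were chosen with earlier results of these data known. The rule for named genes took proper symbols only: the 10 genes with the highest and the 10 with the lowest log2 fold among calls of at least 5 CPM, the same among genes called in all 12 fits that leave out a KO library, the 10 smallest p, and up to 3 called members of each list by p, plus up to 5 in each direction for the difference, which gave none. These genes were named outside it, after their values were seen: Acmsd, Acot2, Angptl4, Asns, Bcat2, Bckdhb, Bhmt2, Cyp4a10, Fgb, Gbp7, Havcr1, Hspa5, Ifit3, Il1f6, Mthfd2, Pcca, Phgdh, Psat1, Retnla, Serpina3g, Slc38a2, Slc7a5 and Ucp2. Fgf21 and Klb are not analysed here, and some genes are not reported here. Promoter sequences are from RefSeq (GRCm38.p6).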

Additional observations from a re-analysis of the deposited data

Results flagged for a closer look

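In groups of 6 libraries, a value was listed when its gap to the nearest other library was over the 95% critical share of the range of its group (Dixon's test). Over 88 groups examined (40 genes and the library measures, in KO_NP and KO_LP) 13 values met this. The 95% level assumes independent values with a normal spread, which CPM of related genes need not have. The 13 are therefore a list and are not compared with chance. Of the 13, 9 came from KO_LP 6, 2 from KO_NP 3, 1 from KO_NP 2 and 1 from KO_LP 1.

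KO_LP 6 stood above the other LP libraries at 5150 CPM for Cyp4a14, 142 CPM for Pdk4, 1310 CPM for Plin2 and 46.3 CPM for the carbonyl reductase Cbr3. It was also the highest at 158 CPM for Fga, 219 CPM for Fgg, 247 CPM for Lcn2 and 198 CPM for Il34. Samd9l was at 31.4 CPM in the same library, below the other 5. Without KO_LP 6 the log2 fold of Cbr3 was 0.54 in place of 1.96.

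KO_NP 3 held 60.5 CPM of Alb and 27.4 CPM of Apoa2, above the other NP libraries. KO_NP 2 held 387 CPM of Cyp4a14, against a group median of 19.7 CPM. The total of KO_LP 1, 8.47 M counts, was below the other LP totals.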

How the results depend on the processing

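The log2 folds of the 179 named genes, most of them chosen for their calls in these libraries, kept their direction under the alternatives run that gave a value. Group medians did not: with the surrogate variable from CPM, 42 of 84 moved by more than the spread between libraries and 19 changed sign, among them macrophage and dendritic cell markers (0.94 to -0.04), chemokines and cytokines (0.84 to -0.17), cell cycle (0.50 to -0.22) and extracellular matrix (0.29 to -0.25). The count of 1087 called genes was 1693 with limma voom, 1839 with DESeq2, 2 with 1 surrogate variable estimated from CPM, and, in fits chosen after seeing the data, 183 with 1 estimated from raw counts and 1 without KO_LP 4 and KO_LP 6. Leaving out 1 KO library gave 122 to 2006 calls. DESeq2 size factors (1063), no low count filter (997), a filter of 5 CPM in 6 libraries (1155), limma on log2 of the normalized values plus 1 (1034) and a fit of the 12 KO libraries only (1107) stayed within 1.5-fold, sharing 1020, 964, 904, 934 and 804 genes with the 1087. For WT the count of 0 was 6 with voom and 14 with DESeq2, and for the difference it was 117 with DESeq2 and 0 in each fit that left out a KO library. Of the named calls, 131 were lost without KO_NP 5, 128 without KO_LP 4 and 178 without KO_LP 4 and KO_LP 6. With the surrogate variable from CPM 179 were lost, and 109 with that from raw counts. DESeq2 lost 0 of the 175 that could be compared there. The cause was not tested. No paired analysis was possible because the labels give no shared replicate numbers. The biological coefficient of variation was 19.6%, and the SD of log2 CPM was larger in KO_LP than in KO_NP for 64.7% of genes. Totals of 8.47 to 16.3 M counts limit the weakest genes, such as Bhmt and Krt20, most.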

Other observations

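Families of genes that share a symbol stem were counted where at least 15 members were tested. In 3 families at least 20% of the members were called in 1 direction. Symbols that begin with H and a digit had 12 of 45 higher and 4 lower, the 12 being H2 genes of antigen presentation and the 4 histone genes such as H4c9. Aldehyde dehydrogenases (Aldh) had 5 of 20 lower and 1 higher, and aldo-keto reductases (Akr) had 3 of 15 lower and 1 higher.

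Outside the groups described above, some secreted and stromal genes kept their calls in every fit. Il1f6, an epithelial cytokine of the interleukin 1 family, was at 0.489, 0.781 and 1.31 CPM in KO_NP and at 2.14, 4.32 and 6.36 CPM in KO_LP without overlap (log2 fold 2.37, edgeR adjusted p = 0.0231). The prostacyclin synthase Ptgis went from 4.15, 4.87 and 5.77 CPM to 6.99, 8.26 and 10.8 CPM (log2 fold 0.80, adjusted p = 0.00791), and the lysosomal nuclease Dnase2a from 13.8 to 16.5 CPM in KO_NP to 20.7 to 27.1 CPM in KO_LP (log2 fold 0.56, adjusted p = 0.0073). Cgref1, a calcium binding growth regulator, fell from 180, 206 and 227 CPM to 93.2, 121 and 140 CPM (log2 fold -0.80, adjusted p = 0.0073). Retnla, a product of alternatively activated macrophages, was at a median of 0.622 CPM in KO_NP and 4.55 CPM in KO_LP, with overlap (log2 fold 3.39, adjusted p = 0.0323), and its call was lost without KO_NP 1, KO_NP 2, KO_NP 3, KO_NP 5, KO_LP 4 or KO_LP 5 (2.91 to 3.78 over the 12 fits).

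Markers of the distal nephron and the endothelium gave at most 1 call per list. There were 0 of 12 in the thick ascending limb (median log2 fold -0.14). The distal convoluted and connecting tubule had 1 of 13 lower (7.69%, Fxyd2, -0.38), with a median of -0.27 and 12 negative. Principal cells had 1 of 13 lower (7.69%, Avpr2, -0.52), with a median of -0.19 and 8 negative. Intercalated cells had 1 of 15 lower (6.67%, Atp6v0a4, -0.41), with a median of -0.21 and 12 negative. Of all tested genes 3.58% were lower. Endothelial markers had 0 of 21 (median 0.13). Of 43 cytochrome P450 genes 5 were higher (11.6%, against 3.59% of all tested genes) and 2 lower (4.65%, against 3.58%), with a median of 0.01.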
